A study of Mus musculus with 5 samples.

Results

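The genes described here are 31 named genes of cholesterol and fatty acid synthesis and of the control of both pathways. They were listed by gene name and make up 31 of 22267 mouse genes with a symbol in the table. Of all these genes 21930 had a value in every library, and Acaca was the only member that did not. They comprise 5 regulators, 18 enzymes of sterol synthesis (8 from acetyl-CoA to squalene and 10 after squalene), the sterol carrier Stard4, and 7 fatty acid genes. RNA sequencing was done on 5 libraries of mouse embryonic stem cells of the E14 line, with 1 library in each group, and the strain is given as C57BL/6. Normal E14 cells, and E14 cells labelled as overexpressing Hk2 and Pkm2 (a hexokinase and a pyruvate kinase of glycolysis), were each taken in the presence of LIF, the cytokine that maintains the stem cell state, and after 24 h without LIF followed by its return. The fifth library came from the labelled overexpressing cells after 40 days without LIF, a time with no library of normal cells. All levels are FPKM (fragments scaled for transcript length and sequencing depth), summed over the transcripts of a gene. Differences between libraries are log2 ratios of FPKM + 1. With 1 library in a group, a difference between libraries has no replicate check and compares those libraries, not the conditions.

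Cholesterol is built from acetyl-CoA through mevalonate, isoprenoid units and squalene, and squalene is then closed to lanosterol and trimmed to cholesterol. The transcription factor SREBP2 (gene Srebf2) mainly drives the sterol enzymes and SREBP1 (Srebf1) mainly drives the fatty acid genes. SCAP carries both from the endoplasmic reticulum to the Golgi, where they are cut and released, and INSIG1 and INSIG2 hold SCAP back when sterols are plentiful. Fatty acid synthesis starts from the same acetyl-CoA, which is supplied by Acly from citrate and by Acss2 from acetate, made into malonyl-CoA by Acaca, built into palmitate by Fasn, and lengthened and desaturated by Elovl6, Scd1 and Scd2. Dividing cells use both products for membranes.

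The sequence upstream of the members is shown first because SREBPs act from proximal promoters together with NF-Y, a factor that binds CCAAT. RefSeq (GRCm38.p6) gave an upstream sequence for 25 of the 31 members. The letters CCAAT, searched on both strands in the 250 bases before each annotated start, were present for 20 of these 25 genes (80%). Among the 7738 genes past the expression filter that had a sequence, 42.1% held them, and among all 27025 genes 37.5% did. Per window, 21 of 33 member windows held the letters (63.6%), against 33.9% of all 32851 windows of that length. By branch, 14 of 15 sterol enzymes, 2 of 5 fatty acid genes and 4 of 5 regulators held CCAAT. It occurred 2 or more times within a single window for 11 of the 25 members. Counted by window and not by gene, 14.2% of windows of genes past the filter and 10.1% of all windows held it 2 or more times. Srebf2, the main regulator of the branch, and 6 genes on which the results below turn are printed 5′ to 3′ in the sense of the gene, with CCAAT (or ATTGG, its reverse complement) and ATCACC in capitals.
Srebf2 (chr15:82147019-82147268, plus strand): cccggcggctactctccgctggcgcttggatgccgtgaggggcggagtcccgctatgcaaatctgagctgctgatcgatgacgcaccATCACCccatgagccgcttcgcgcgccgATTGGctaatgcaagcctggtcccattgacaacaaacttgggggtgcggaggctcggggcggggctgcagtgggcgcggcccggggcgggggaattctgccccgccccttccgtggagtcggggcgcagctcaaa
Idi1 (chr13:8885356-8885605, plus strand): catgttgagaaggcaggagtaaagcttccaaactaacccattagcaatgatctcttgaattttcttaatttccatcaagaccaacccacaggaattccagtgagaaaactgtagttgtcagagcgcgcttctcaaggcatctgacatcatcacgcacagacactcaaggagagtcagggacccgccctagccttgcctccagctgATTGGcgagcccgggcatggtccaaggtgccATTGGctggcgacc
Mvd (chr8:122443423-122443672, minus strand): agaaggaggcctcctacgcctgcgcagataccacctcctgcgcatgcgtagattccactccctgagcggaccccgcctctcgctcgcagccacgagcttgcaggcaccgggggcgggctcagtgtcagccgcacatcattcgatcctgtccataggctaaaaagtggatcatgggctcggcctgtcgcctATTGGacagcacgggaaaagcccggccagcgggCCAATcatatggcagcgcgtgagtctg
Ebp (chrX:8193513-8193762, minus strand): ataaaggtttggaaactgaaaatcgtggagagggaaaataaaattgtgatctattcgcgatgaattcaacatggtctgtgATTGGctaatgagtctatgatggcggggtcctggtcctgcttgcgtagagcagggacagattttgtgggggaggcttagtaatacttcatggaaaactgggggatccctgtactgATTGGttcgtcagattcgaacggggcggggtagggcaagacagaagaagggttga
Cyp51 (chr5:4104698-4104947, minus strand): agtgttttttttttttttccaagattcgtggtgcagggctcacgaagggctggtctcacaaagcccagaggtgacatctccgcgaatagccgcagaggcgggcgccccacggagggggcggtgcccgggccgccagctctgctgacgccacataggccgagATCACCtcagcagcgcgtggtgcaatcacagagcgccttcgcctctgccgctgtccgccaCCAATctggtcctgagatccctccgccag
Fasn (chr11:120824548-120824797, minus strand): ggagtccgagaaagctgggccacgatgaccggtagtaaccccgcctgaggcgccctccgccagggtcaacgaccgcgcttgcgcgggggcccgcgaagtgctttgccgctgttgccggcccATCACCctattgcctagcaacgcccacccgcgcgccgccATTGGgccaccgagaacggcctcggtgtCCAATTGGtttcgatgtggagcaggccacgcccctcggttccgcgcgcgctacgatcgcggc
Elovl6 (chr3:129532136-129532385, plus strand): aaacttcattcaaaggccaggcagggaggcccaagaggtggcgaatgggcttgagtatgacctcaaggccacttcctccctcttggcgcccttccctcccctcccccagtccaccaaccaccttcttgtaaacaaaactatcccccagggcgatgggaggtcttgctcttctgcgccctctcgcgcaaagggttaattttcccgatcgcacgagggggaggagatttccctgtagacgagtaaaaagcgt
The pair of CCAAT letters in Mvd began 60 and 27 bases before the start, and those in Idi1 lay 45 and 14 bases before it. In Fasn a CCAAT and an ATTGG overlap in the run CCAATTGG and were counted separately, which gives that window 3 matches. Elovl6 held none of the motifs searched. The sterol regulatory element core, written TCACNCCAC, was present only for Hmgcs1 among the 25 genes, against 1.32% of the genes past the filter. The shorter hexamer ATCACC, added to the search after these sequences had been read, was present for 7 of 25 genes (28.0%), against 8.14% of the genes past the filter and 8.48% of all windows. It occurred in Srebf2, Insig2, Pmvk, Lss, Cyp51, Nsdhl and Fasn. GGGCGG, the core of the GC box, was present for 84.0% of the members and 67.4% of the genes past the filter. CACGTG, an E-box, was present for 5 of 25 members, against 10.5% of the genes past the filter. Letter matches describe these windows and carry no information on binding in these cells.

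Relative sequencing depth, read from the spacing of the lowest values, lay between 0.933 and 1.07 of the library of normal cells with LIF, and about 36 to 42 fragments per kilobase stood behind 1 FPKM. A filter on a mean of at least 1 FPKM left 9590 genes, among them 29 of the 31 members. The 5 stem cell markers were well above 1 FPKM in every library, and their summed level was 1877 and 1919 FPKM with LIF, 1395 and 1425 after 24 h and 999 at 40 days. Hk2 was only 1.29-fold higher in the labelled overexpressing cells with LIF and 1.19-fold higher after 24 h, and Pkm, the gene of Pkm2, was 1.11-fold and 0.924-fold, so these levels do not show the labelled overexpression. Ddx3y, on the Y chromosome, was at 11.8 FPKM in both normal libraries and between 0.0130 and 1.79 in the libraries labelled as overexpressing, where the 1.79 is the 40-day library and the others are at 0.0225 and 0.0130. Eif2s3y, another Y-linked gene, was at 34.1 and 35.1 FPKM in the normal libraries and at 16.3, 22.6 and 4.58 in the labelled ones. The part of this difference between the lines in the results between cell types was not tested. In RNA from many cells, fewer cells of a type and less RNA per cell cannot be told apart.

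The regulators had moderate levels in all libraries. In what follows, 5 values of a gene are given in the order normal with LIF, overexpressing with LIF, normal after 24 h, overexpressing after 24 h and overexpressing at 40 days. Srebf2, the regulator of sterol synthesis, stood at 40.8, 23.8, 40.7, 38.3 and 18.9 FPKM. It was lowest at 40 days and also low in the overexpressing cells with LIF, and the other 3 libraries lay close together. Srebf1 stood at 15.4, 8.24, 12.4, 9.27 and 13.1 FPKM, with its 2 lowest values in the overexpressing cells with LIF and after 24 h. The ratio of Srebf2 to Srebf1 FPKM was 2.65, 2.89, 3.28, 4.14 and 1.45 in the same order. Srebf2 was thus the higher of the pair in all 5 libraries, with the smallest margin at 40 days.

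Insig1 stood at 18.7, 20.0, 19.0, 15.4 and 14.6 FPKM, and Insig2 at 7.51, 9.38, 7.56, 8.50 and 11.3 FPKM. The ratio of Insig1 to Insig2 lay between 1.81 and 2.52 in the first 4 libraries and was 1.30 at 40 days, where Insig1 had its lowest and Insig2 its highest level. Scap, the SREBP escort, ranged from 7.12 FPKM at 40 days to 11.5 in normal cells after 24 h. No regulator passed a 2-fold difference in any of the 6 comparisons of libraries. Of all genes, 9.43% and 9.37% did between the cell types with LIF and after 24 h, 10.1% and 11.9% between 24 h and LIF in normal and overexpressing cells, and 22.3% and 17.8% at 40 days against LIF and against 24 h. The closest was Srebf2, at −0.98 on the log2(FPKM + 1) scale between 40 days and 24 h, and its plain FPKM ratio of 0.494 is just past 2-fold. By mm9 annotation Srebf1 overlaps Rai1, Scap overlaps 5830462I19Rik, Mvd overlaps Gm20388, Fdft1 overlaps Ctsb, Tm7sf2 overlaps 1110014N23Rik and Acss2 overlaps Ggt7 and Gss. The libraries were made with a kit that does not mark strand, so reads from these overlaps cannot be told apart. The levels of these 6 members are therefore less certain. Only overlaps of members past the filter with protein-coding genes are listed. Srebf2, Fdps, Lss and Scd2 overlap annotated genes of other types, and Hmgcs1, Msmo1 and Stard4 were not checked.

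**Figure D1:**
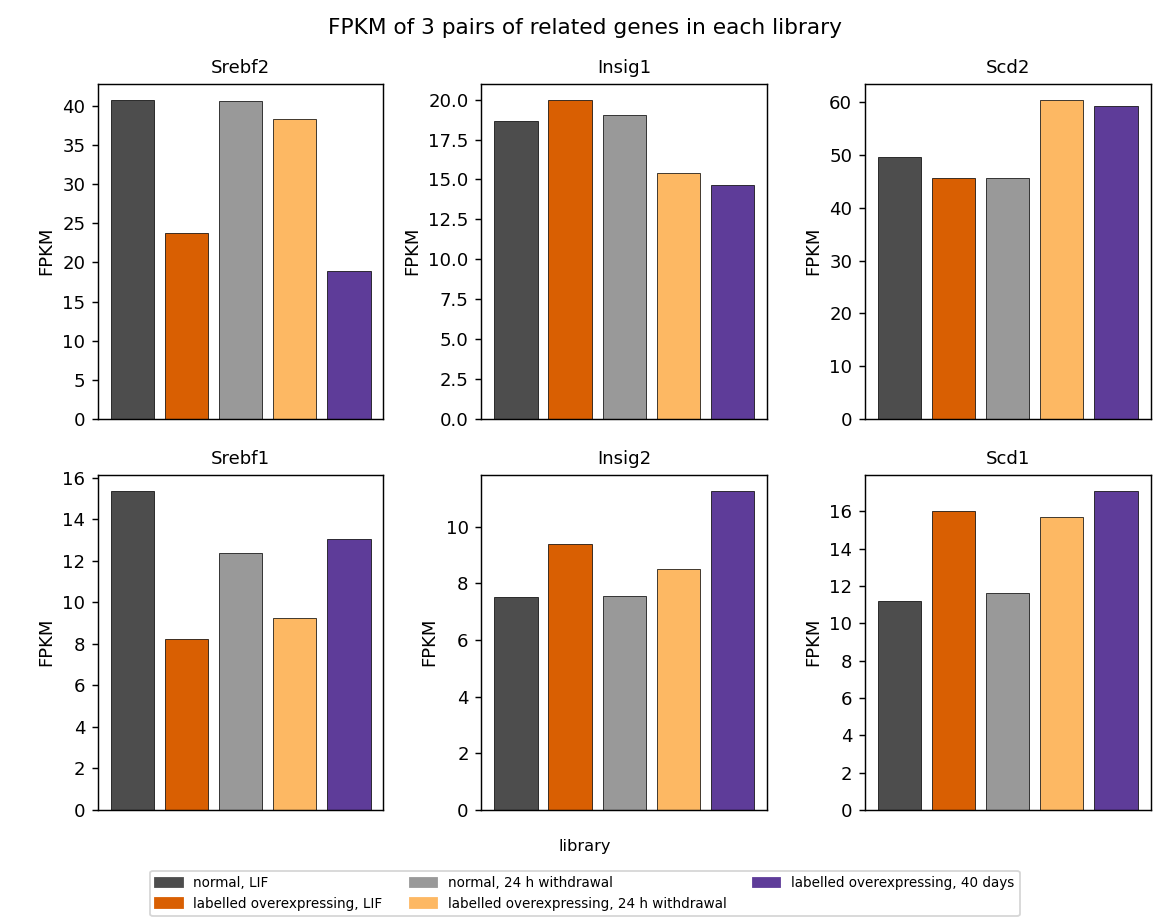
FPKM (y axis, from 0) of the paired genes Srebf2 and Srebf1, Insig1 and Insig2, and Scd2 and Scd1, with 1 bar for each of the 5 libraries and no error bars because each group is 1 library. At 40 days Srebf2 was at 18.9 FPKM and Insig1 at 14.6, their lowest values, while Insig2 at 11.3 and Scd1 at 17.1 were at their highest.

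Of the 8 enzymes from acetyl-CoA to squalene, 7 passed the filter. Idi1, which interconverts the isoprenoid building units, stood at 44.5, 22.6, 53.7, 28.2 and 10.1 FPKM. With LIF and after 24 h the labelled overexpressing cells lay below both normal libraries, and the 40-day value was the lowest. Mvd, which makes isopentenyl diphosphate, stood at 37.3, 32.1, 35.1, 35.1 and 12.4 FPKM, level in the first 4 libraries and low at 40 days. Fdft1, the squalene synthase, stood at 27.0, 12.2, 18.4, 25.4 and 10.8 FPKM. Its low values were those of the overexpressing cells with LIF and at 40 days, as for Srebf2.

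Mvk, mevalonate kinase, stood at 13.7, 8.09, 11.6, 15.3 and 8.98 FPKM, lowest in the overexpressing cells with LIF. Pmvk, the next kinase, stood at 28.5, 38.4, 23.1, 24.6 and 17.7 FPKM, so its highest value was in the library in which Mvk was lowest. Fdps, which makes farnesyl diphosphate, ranged from 4.26 FPKM at 40 days to 9.79 in normal cells after 24 h. Acat2, a thiolase that makes acetoacetyl-CoA, stood at 57.4, 56.6, 60.9 and 61.1 FPKM in the first 4 libraries and was listed at 0 at 40 days. Such a value in a table without counts can be a failed estimate, so no fold is given for it, and counts and medians of sterol enzymes at 40 days are given with and without this gene. Hmgcs1, the enzyme that makes HMG-CoA, was listed at 0 in all 5 libraries in both of its table entries, and no level can be read for it.

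The 10 enzymes after squalene all passed the filter. Ebp, the sterol isomerase, stood at 3.38, 3.40, 9.93, 12.7 and 2.68 FPKM. Both libraries taken after 24 h were high and the other 3 were low. Cyp51, the lanosterol demethylase, stood at 13.6, 4.80, 13.4, 21.9 and 15.9 FPKM. Its low value was in the overexpressing cells with LIF and its high value in the same cells after 24 h. Sqle, squalene epoxidase, stood at 31.6, 26.6, 44.7, 36.2 and 23.5 FPKM, higher after 24 h in both cell types.

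Dhcr7, which makes cholesterol from 7-dehydrocholesterol, stood at 17.5, 17.5, 19.4, 17.0 and 8.42 FPKM, and Nsdhl, which takes part in C4 demethylation, at 13.7, 12.9, 10.4, 12.1 and 6.74 FPKM. Both were lowest at 40 days. Msmo1, the C4 methyl sterol oxidase, was also lowest there at 23.9 FPKM, against 32.9 to 37.4 in the other 4 libraries. Tm7sf2, a sterol reductase, ranged from 4.38 FPKM at 40 days to 7.64. Of the remaining 3, Lss, which closes the ring to lanosterol, lay between 15.8 and 21.1 FPKM, Hsd17b7 between 3.29 and 4.45, and Sc5d between 1.32 and 2.33. Stard4, which moves sterol between membranes, lay between 8.52 and 11.0 FPKM.

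Of the 7 fatty acid genes, 6 passed the filter. Fasn, the fatty acid synthase, stood at 27.1, 34.7, 63.0, 57.5 and 13.5 FPKM, high in both libraries taken after 24 h and lowest at 40 days. Elovl6, which lengthens palmitate, stood at 11.0, 13.7, 18.9, 21.4 and 15.3 FPKM, also highest after 24 h, and at 40 days it lay above both libraries with LIF. Acly stood at 48.4, 63.2, 74.4, 81.6 and 47.1 FPKM. Its first value is less certain, because a transcript of the gene was listed at 0 in that library alone. The desaturase Scd2 stood at 49.6, 45.6, 45.6, 60.5 and 59.3 FPKM, and its chromosome 19 neighbour Scd1 at 11.2, 16.0, 11.6, 15.7 and 17.1 FPKM. The 3 values of Scd1 in overexpressing cells were all above the 2 in normal cells, and Scd2 exceeded Scd1 in every library by 2.85-fold to 4.42-fold. Acss2 was between 1.89 and 3.34 FPKM. Acaca, acetyl-CoA carboxylase, carried a hyphen in place of a value in 3 libraries and was left out.

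**Figure D2:**
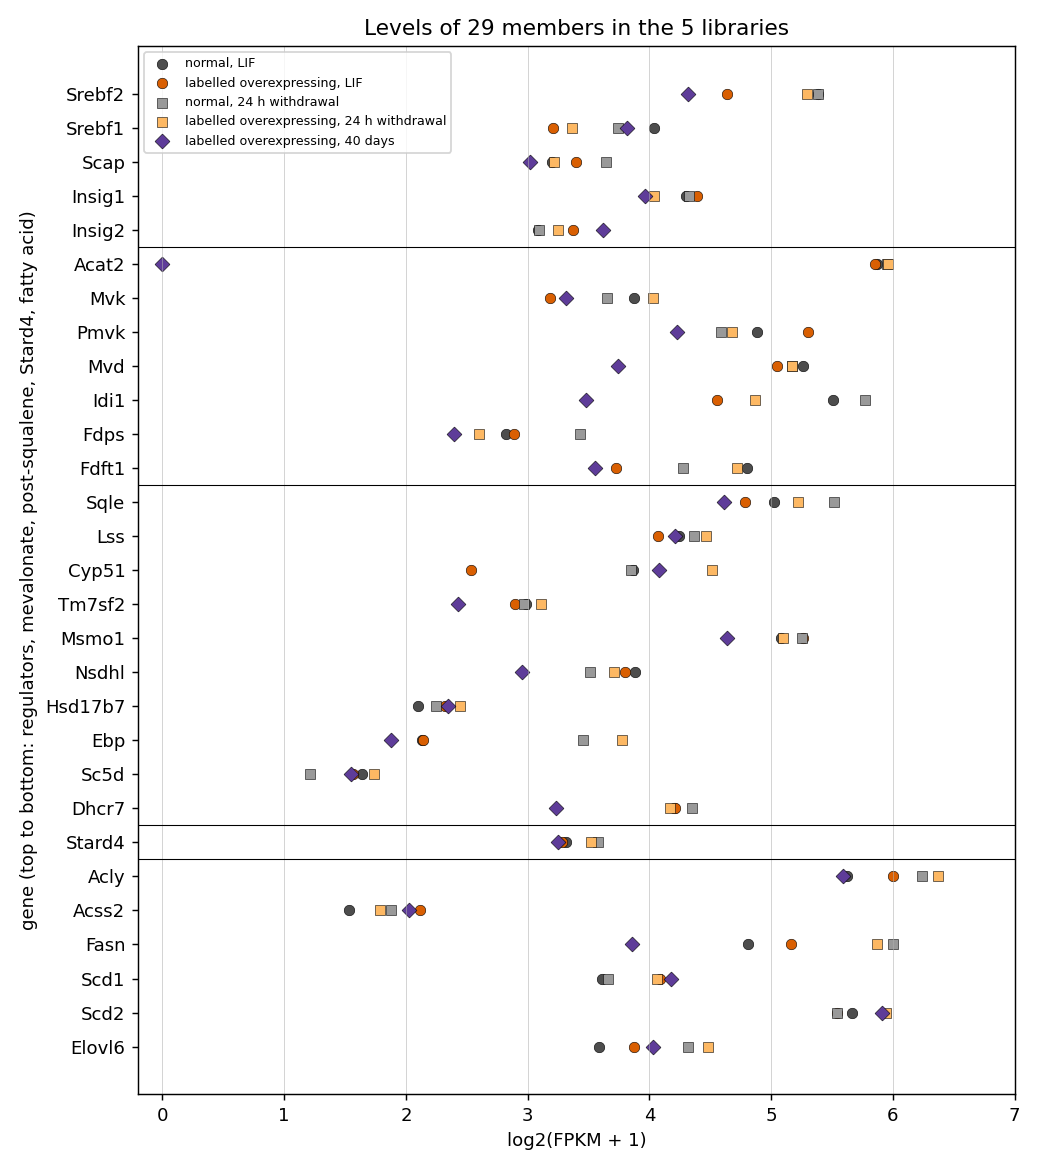
Levels of the members past the filter in each of the 5 libraries, grouped by branch, on a log2 scale of FPKM + 1. Within the early sterol enzymes the 40-day library holds the lowest value for 6 of 7 genes, and Acat2 is listed at 0 there.

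The order of the libraries differed between the branches. The 40-day library held the lowest value of 12 of 17 sterol enzymes (70.6%), or 11 of 16 without Acat2 (68.8%), and of 2 of 6 fatty acid genes, Fasn and Acly. Over all 9590 genes it held the lowest value for 27.2%. The summed level of the 17 sterol enzymes was 357, 307, 379, 363 and 173 FPKM, and without Acat2 it was 299.8, 250.5, 318, 302 and 173 FPKM (in the order given above). The summed level of the 6 fatty acid genes was 149, 177, 216, 239 and 156 FPKM. In the first of these sums a transcript of Acly is listed at 0. The sterol sum at 40 days was the lowest of the 5 with or without Acat2. The fatty acid sum at 40 days lay between the values of normal and overexpressing cells with LIF, but this place rests on the Acly transcript. It was listed at 0 in the first library and at 29.4 to 36.6 FPKM in the others. With that transcript left out of all 5 libraries, the fatty acid sum too is lowest at 40 days. The overexpressing cells after 24 h held the highest value of 8 of 17 sterol enzymes (47.1%), against 14.2% of all genes. These counts were chosen after the values had been seen.

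Withdrawal for 24 h was compared with LIF in each cell type. In normal cells 1 of 17 sterol enzymes, Ebp, was 2-fold higher (2.94-fold in FPKM) and none was 2-fold lower, and 1 of 6 fatty acid genes, Fasn, was 2-fold higher (2.33-fold). Over all genes, 4.62% were 2-fold higher and 5.51% 2-fold lower. The median log2 ratio was 0.08 for the sterol enzymes and 0.48 for the fatty acid genes, against −0.0055 over all genes. The 0.48 includes an Acly transcript listed at 0 with LIF, and with the highest transcript of each gene this median was 0.20. In the overexpressing cells 2 of 17 sterol enzymes were 2-fold higher, Cyp51 (4.55-fold) and Ebp (3.73-fold), and no fatty acid gene passed 2-fold, where 5.79% of all genes were 2-fold higher and 6.07% 2-fold lower. Fdft1 just missed the call there at 0.997, and its plain FPKM ratio of 2.08 is past 2-fold. The medians in these cells were 0.17 for sterol enzymes, 0.38 for fatty acid genes and 0.0042 over all genes.

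The genes that were higher after 24 h in both cell types can be set side by side, since these 2 comparisons share no library. At 1.5-fold, 3 of 29 members were higher in both, Ebp (log2 1.32 in normal and 1.64 in overexpressing cells), Fasn (1.19 and 0.71) and Elovl6 (0.73 and 0.61), and no member was lower in both. Over all genes 9.91% were 1.5-fold higher in normal cells and 11.3% in overexpressing cells. Of 9590 genes 323 were 1.5-fold higher in both and 428 were 1.5-fold lower in both. In sign alone, 10 of 29 members were higher in both and 2 lower in both, against 2988 and 3030 of 9590 genes. Beside Ebp, Fasn and Elovl6, the higher ones included Acly (0.61 and 0.36), Sqle (0.49 and 0.43) and Idi1 (0.27 and 0.31). The rest were Stard4 (0.27 and 0.24), Lss, Hsd17b7 and Acat2. Pmvk (−0.29 and −0.62) and Nsdhl (−0.37 and −0.09) were lower in both. The Acly value in normal cells rests on a transcript listed at 0 with LIF, which can be a failed estimate. In these cells the other Acly transcript was at 48.4 FPKM with LIF and 39.9 after 24 h. Opposite signs were found for 17 of 29 members, against 3415 of 9590 genes, among them Fdft1 (−0.53 and 0.997), Mvk (−0.22 and 0.85) and Fdps (0.61 and −0.29), and all 5 regulators, of which Srebf2 (−0.01), Insig2 (0.01) and Insig1 (0.03) were near 0 in normal cells. Cyp51 was level in normal cells (−0.01) and higher in overexpressing cells (1.98). Whether these differences between cell types exceed library noise was not tested, because the design has no residual beyond the interaction itself. Beside these results, 3 of 5 stem cell markers were 2-fold lower after 24 h in both cell types, and the part of that in the members' values was not tested.

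**Figure D3:**
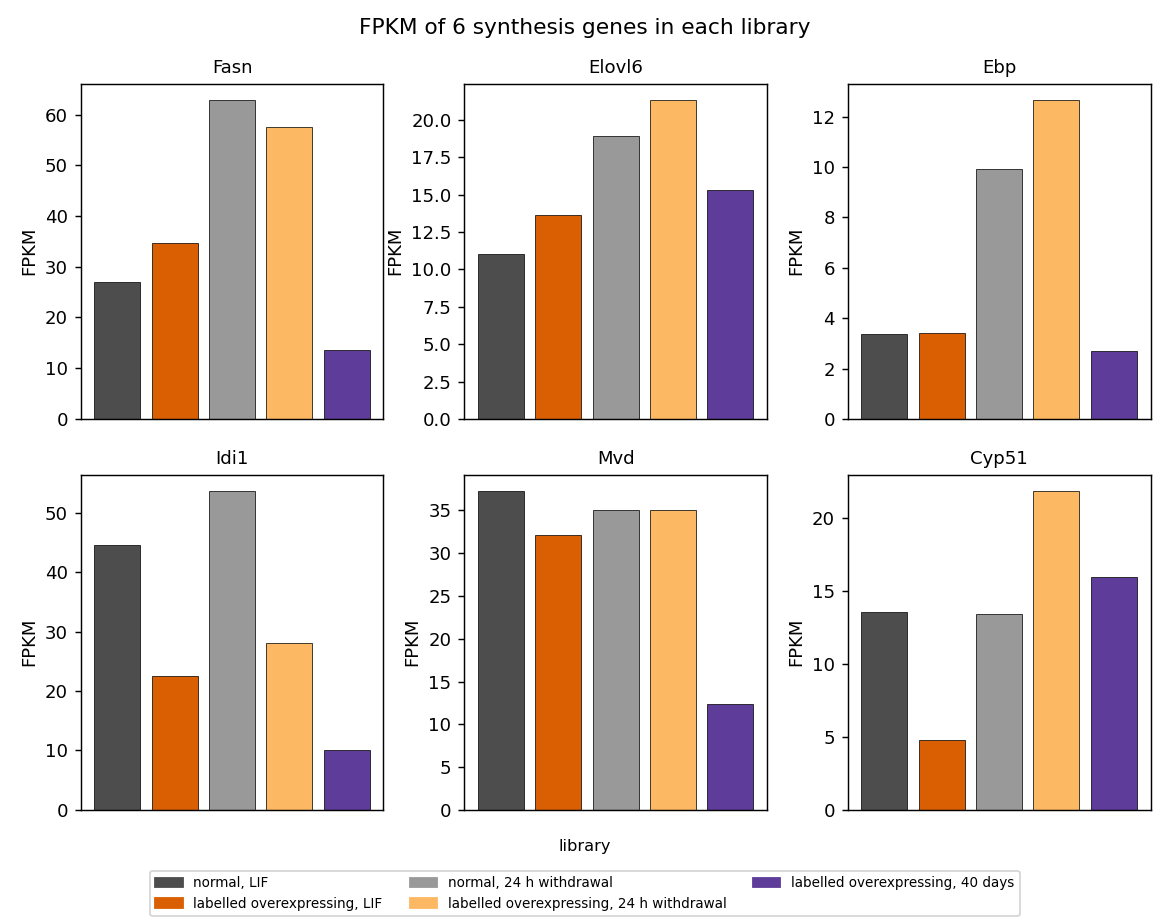
FPKM (y axis, from 0) of Fasn, Elovl6, Ebp, Idi1, Mvd and Cyp51 in the 5 libraries, with 1 bar for each library and no error bars. Ebp is at 9.93 and 12.7 FPKM in the libraries taken after 24 h and at most 3.40 in the others, and Mvd is at 12.4 at 40 days and at least 32.1 elsewhere.

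A linear model over the 4 libraries with LIF and after 24 h, with cell type and culture as additive terms (limma, Benjamini-Hochberg adjustment over 9590 genes), leaves 1 residual degree of freedom. No gene passed an adjusted p of 0.05 for the culture term (0.0%) or for the cell type term (0.0%). Without adjustment, 6 of 29 members (20.7%) were under 0.05 for the culture term, against 1154 genes or 12.0% overall. They were Ebp, with a log2 difference of 1.48 ± 0.17 (SE; limma adjusted p = 0.329), Fasn with 0.95 ± 0.17 (limma adjusted p = 0.345), Elovl6 with 0.67 ± 0.10, Acly with 0.49 ± 0.10, Sqle with 0.46 ± 0.079 and Idi1 with 0.29 ± 0.077. All 6 differences were positive, and that of Acly includes the transcript listed at 0 in normal cells with LIF. These 6 are among the 10 members named above as higher in both cell types. Pmvk, which was lower in both, had −0.46 ± 0.13 and was not under 0.05. The residual of the fit is the disagreement between the cell types plus library noise. The fit therefore restates which genes agreed in the 2 cell types and adds no separate support. Cyp51, whose values in the 2 cell types disagreed, had 0.98 ± 0.64.

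The labelled overexpressing cells were compared with normal cells in each culture. With LIF, 2 of 17 sterol enzymes were 2-fold lower, Cyp51 (FPKM ratio 0.354) and Fdft1 (0.454), none was 2-fold higher, and no fatty acid gene passed 2-fold. Over all genes 5.32% were 2-fold lower and 4.11% 2-fold higher. Idi1 (log2 −0.95), Srebf1 (−0.83), Srebf2 (−0.75) and Mvk (−0.69) were at least 1.5-fold lower, as were 11.7% of all genes. The medians were −0.08 for sterol enzymes and 0.36 for fatty acid genes, against −0.044 over all genes. Among fatty acid genes, 5 of 6 were higher, by 0.29 for Elovl6 to 0.59 for Acss2, and Scd2 was at −0.12. Of all 9590 genes 4225 were higher. Acly is among the 5, with a transcript listed at 0 in normal cells. Its other transcript was lower in the overexpressing cells, at 33.8 against 48.4 FPKM.

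After 24 h no member passed 2-fold between the cell types, where 5.18% of all genes were 2-fold lower and 4.19% 2-fold higher. The median was 0.10 for sterol enzymes and 0.15 for fatty acid genes, against −0.021 over all genes. Idi1 was lower again, at −0.91, and was the only member of 29 that was 1.5-fold lower in both cultures, against 367 of 9590 genes, a like share. Cyp51 was 1.5-fold lower with LIF (−1.33) and 1.5-fold higher after 24 h (0.66), where 8.39% of all genes were 1.5-fold higher and 11.8% 1.5-fold lower. Fdft1 (−1.08 and 0.44) and Mvk (−0.69 and 0.38) had the same pattern of signs. Signs were opposite between the cultures for 17 of 29 members and 3484 of 9590 genes, and at 1.5-fold for Cyp51 alone of the members and for 235 genes. Srebf2 was at −0.75 with LIF and −0.08 after 24 h. In the additive limma model the cell type term was −0.93 ± 0.077 (SE) for Idi1, with an adjusted p of 0.512, and 0.44 ± 0.11 for Scd1, and these were the only 2 of 29 members (6.9%) under an unadjusted 0.05, against 9.57% of all genes.

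**Figure D4:**
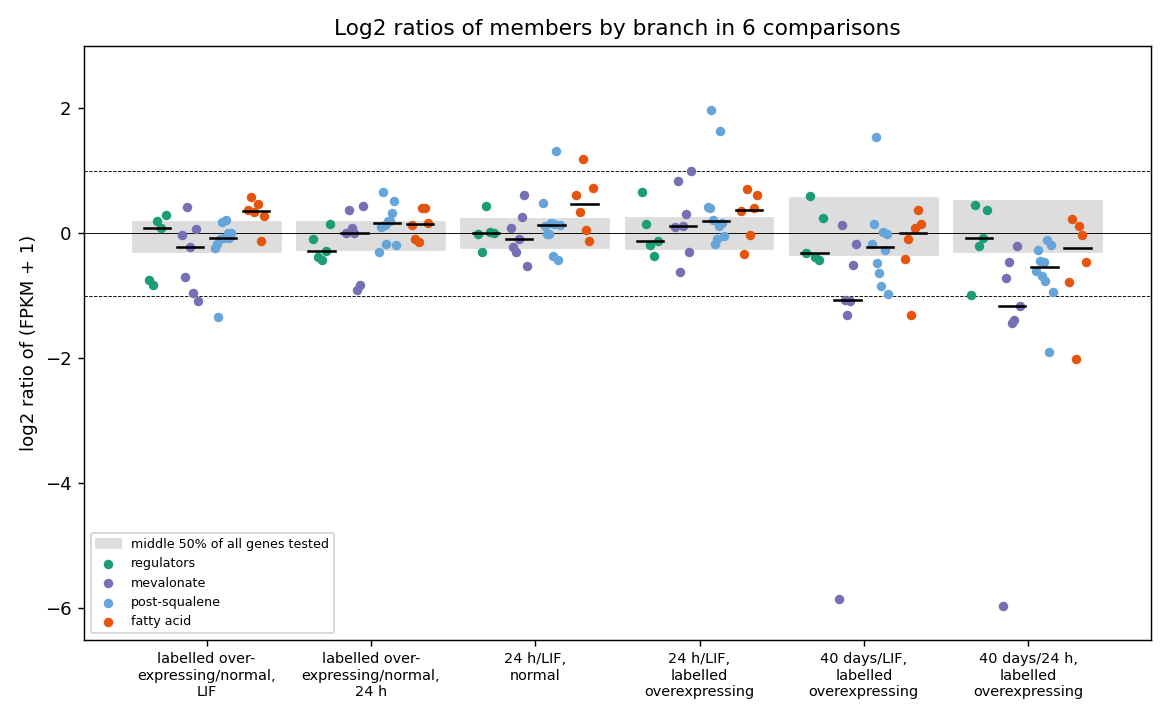
Log2 ratio of FPKM + 1 (y axis) for each member past the filter in the 6 comparisons of libraries (x axis), coloured by branch, with black bars for branch medians, grey boxes for the middle 50% of all genes and dashed lines at 2-fold. The points near −6 are Acat2, listed at 0 at 40 days, Stard4 is not drawn, and the median of the early sterol enzymes lies at −1.07 and −1.17 in the comparisons with the 40-day library, or −0.78 and −0.94 without Acat2.

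At 40 days without LIF, more genes differed than at 24 h. Against the same cells with LIF, 14.0% of all genes were 2-fold higher and 8.31% 2-fold lower. Of 17 sterol enzymes 4 were called 2-fold lower, all before squalene: Mvd (FPKM ratio 0.386), Idi1 (0.449), Pmvk (0.462) and Acat2. Without Acat2, 3 of 16 were called. Dhcr7, an enzyme after squalene, just missed the call at −0.97 on the log2(FPKM + 1) scale. Its plain FPKM ratio of 0.482 is past 2-fold, so the limit to enzymes before squalene depends on the cut-off. The only sterol enzyme 2-fold higher was Cyp51 (3.32). The Cyp51 ratio is taken against its lowest library. Fasn was the only fatty acid gene past 2-fold, with an FPKM ratio of 0.389. The median was −1.07 for the early sterol enzymes (−0.78 without Acat2), −0.22 for those after squalene and −0.00036 for the fatty acid genes, against 0.076 over all genes.

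The comparison with the same cells after 24 h shares the 40-day library with the one above. All 17 sterol enzymes had lower values at 40 days, as did 4292 of 9590 genes. The 24 h library held the highest value of 8 of these 17 enzymes. The sterol enzymes had a median of −0.68, or −0.64 for the 16 without Acat2. The median over all genes was 0.072. Of these enzymes 5 were 2-fold lower, where 5.78% of all genes were 2-fold lower and 12.1% 2-fold higher: Ebp (FPKM ratio 0.211), Mvd (0.353), Idi1 (0.360), Fdft1 (0.424) and Acat2. Without Acat2 the count was 4 of 16. At 1.5-fold the count was 10 of 17, or 9 of 16 without Acat2, against 13.1% of all genes. Dhcr7 (log2 −0.93, FPKM ratio 0.496), Nsdhl (−0.76), Mvk (−0.71) and Tm7sf2 (−0.68) were among them. Hsd17b7 (−0.10) and Sc5d (−0.18) differed least.

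At 40 days the fatty acid genes had values on both sides of 0. Fasn was 2-fold lower than after 24 h, with a ratio of 0.235, and Acly was at −0.78 on the log2 scale. Elovl6 (−0.45), Scd2 (−0.03), Scd1 (0.11) and Acss2 (0.24) were within 1.5-fold. Their median was −0.24. Among the regulators Srebf2 was at −0.98 and Srebf1 at 0.45. Set against LIF, the same regulators were at −0.32 and 0.61.

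Markers of other cell types also differed at 40 days. The summed level of 9 endoderm markers was 104 FPKM, against 3.03 to 5.15 in the other libraries, with Dab2 at 52.0, Gata4 at 25.6, Sox7 at 16.1 and Gata6 at 7.88 FPKM, while Afp and Sox17 were listed at 0. Of these 9, 5 were at 1 FPKM or more at 40 days. The sum of 5 trophoblast markers was 76.8 FPKM against 8.60 to 17.0, of which Krt18 gave 54.2 and Krt8 21.6, and Elf5 and Cdx2 were at 0.0960 and 0.294. The 4 neural markers summed to 9.89 FPKM against 3.58 to 5.25, the 4 mesoderm markers to 1.80 against 0.579 to 0.923, and the 6 fibroblast markers to 89.5 against 69.4 to 181. Actb was 587.5 FPKM at 40 days and 969 to 1323 elsewhere. The part of these differences in the lower sterol enzyme levels was not tested.

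Most members, 26 of 31, had a single transcript accession in the table, so only a few could differ in transcript use. Acly had 2 transcripts at levels above 0. The transcript NM_001199296 was listed at 0 in normal cells with LIF and made up 46.6%, 46.3%, 44.9% and 68.1% of the gene in the other libraries. The other Acly transcript stood at 48.4, 33.8, 39.9, 45 and 15.1 FPKM, lowest at 40 days. Scap had 2 transcripts, and the lesser of them, NM_001001144, made up 36.6%, 35.7%, 19.2%, 17.1% and 24.2% of the gene. Its share was thus lower in the 3 libraries from cells that had been without LIF. Division of reads among overlapping transcripts is an estimate, and no counts stand behind these shares.

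**Figure D5:**
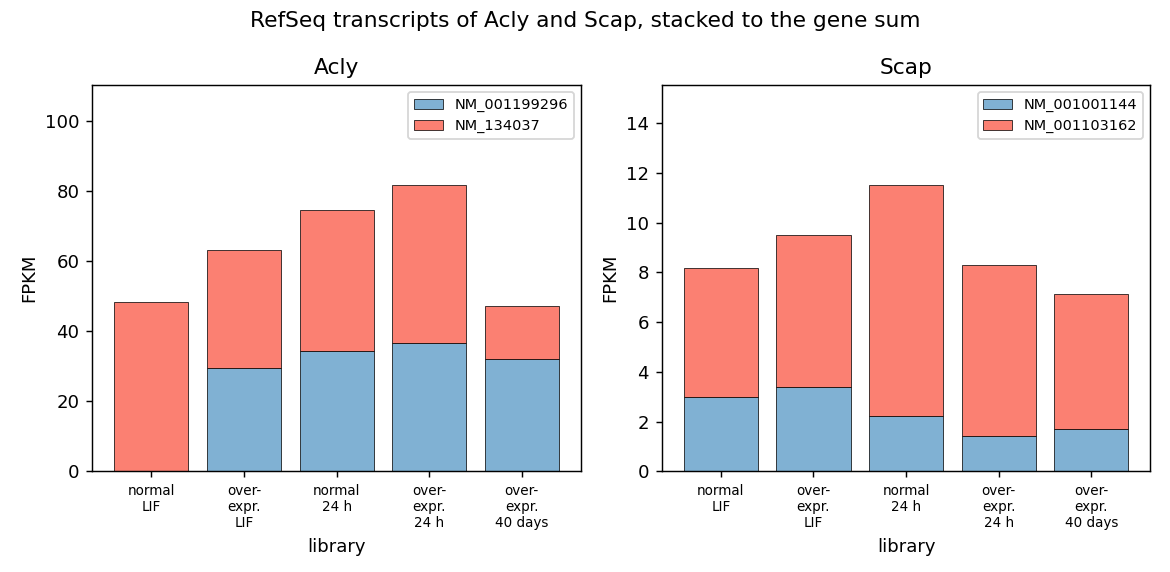
FPKM (y axis, from 0) of the transcripts of Acly and Scap in the 5 libraries. The Acly transcript NM_001199296 is listed at 0 in normal cells with LIF and lies between 29.4 and 36.6 FPKM in the other libraries.

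Genes of neighbouring lipid pathways, 48 in 8 lists, of which 42 passed the filter, were read in the same way. At 40 days against LIF 9 were 2-fold higher and 2 lower, where 14.0% of all genes were higher and 8.31% lower. Against 24 h 12 were higher and 1 lower, where 12.1% of all genes were higher and 5.78% lower. A lower gene in both comparisons was Nr1h2, a sterol-sensing receptor, which stood at 13.5, 14.0, 0, 21.6 and 0 FPKM and whose values listed at 0 can be failed estimates. The proteases that cut SREBPs, Mbtps1 and Mbtps2, stood at 54.6 and 4.06 FPKM at 40 days, within 1.5-fold of the same cells with LIF and after 24 h. In the list for uptake and storage of cholesterol 6 genes passed the filter. Of these, 3 were 2-fold higher at 40 days than with LIF and none lower, beside the 14.0% and 8.31% of all genes. Among the 3 is Lipa, which was under 1 FPKM in every other library and passed the filter only through its 40-day value. Its count as higher, here and among the 42 genes above, is thus partly set by the filter. Soat1, which esterifies cholesterol for storage, stood at 1.63, 1.13, 2.77, 2.82 and 8.87 FPKM, and Lipa, the lysosomal lipase that frees cholesterol, at 0.220, 0.157, 0.323, 0.654 and 5.20 FPKM. Both were highest at 40 days, as were 34.9% of all genes. In that library 12 of 17 sterol enzymes were lowest, or 11 of 16 without Acat2. Npc2, a lysosomal sterol carrier, ranged from 16.5 to 41.3 FPKM with its highest value in normal cells with LIF.

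In the efflux list, 3 of 6 genes passed the filter. Abca1, the cholesterol exporter, stood at 4.11, 3.09, 0.306, 0.0838 and 1.19 FPKM, lower after 24 h than with LIF in both cell types, whereas Ebp and Fasn were higher. Apoe, the lipoprotein that accepts exported cholesterol, stood at 969, 485, 624, 243 and 290 FPKM. Among the 7 genes of isoprenoid side branches none was 2-fold different at 40 days from LIF, beside 22.3% of all genes. Against 24 h 2 were 2-fold higher, beside 12.1% of all genes. They were Coq2 of ubiquinone synthesis (1.30 to 4.71 FPKM) and Dhdds of dolichol synthesis (2.09 to 5.86). In the same cells with LIF Coq2 was at 4.73 and Dhdds at 6.75 FPKM. Ggps1, which makes geranylgeranyl diphosphate, was between 0.985 and 2.78 FPKM.

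In the list of fatty acid supply and control, 6 of 7 genes passed the filter. At 40 days 2 were 2-fold higher than with LIF, Mid1ip1 and Acsl4, beside 14.0% of all genes. Against 24 h 2 were 2-fold higher, Mid1ip1 and Me1, beside 12.1% of all genes. Me1, the malic enzyme that supplies NADPH, stood at 1.21, 1.57, 1.10, 0.343 and 3.77 FPKM. Mid1ip1, an activator of acetyl-CoA carboxylase, stood at 6.91, 7.31, 13.0, 16.1 and 33.2 FPKM, and Acsl4, which activates arachidonic acid, at 6.95, 8.26, 16.1, 28.9 and 37.6 FPKM. Both were higher after 24 h than with LIF in both cell types and highest at 40 days, where Fasn was lowest. In the elongation and desaturation list, with 6 of 8 past the filter, Fads2 (a desaturase of polyunsaturated fatty acids) was at 28.9 FPKM in overexpressing cells after 24 h against 8.83 to 21.1 elsewhere. Tecr, the last enzyme of each elongation round, was at 22.2 FPKM in that library against 73.9 to 110 elsewhere, and Hacd3 lay between 8.44 and 13.8. In the glycerolipid list Dgat2, which completes triglycerides, was highest at 40 days at 6.27 FPKM against 0.792 to 1.45, while Dgat1 was lowest there at 5.37 and Lpin1 lay between 1.41 and 3.97. Of 7 genes of fatty acid oxidation, 3 were 2-fold higher and 1 lower at 40 days than with LIF, beside the same 14.0% and 8.31%. Acadl was at 21.7 and Cpt2 at 12.7 FPKM, their highest values, and Acadm was at 22.3, its lowest. Hadhb, the other higher gene, was at 5.74 FPKM at 40 days but listed at 0 in the overexpressing cells with LIF, so its ratio is not read. It would not have passed the filter without its 40-day value.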

How the data were processed

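RNA was extracted with Qiazol and sequenced from TruSeq v2 libraries, per the labels. The submitters' processing notes name TopHat2 2.0.7, Cufflinks 2.0.2 and mm9. The authors deposited FPKM values for 28698 RefSeq transcripts in 5 libraries. Of these, 28066 matched a symbol in RefSeq GRCm38.p6, and FPKM was summed per symbol. A further 337 genes with a hyphen for a value were left out. Log2 ratios used FPKM + 1, genes with a mean of at least 1 FPKM were kept, and a 2-fold ratio was counted as a call. The 2 by 2 layout of 4 libraries was fitted with limma 3.58.1 in R 4.3.3 (trend, moderated variance, two-sided) and tested on simulated data first. That test required changed genes to be called only at a spread far below that of these data. It therefore does not show that the fit can call genes here. Each group is 1 library, so no p rests on spread between like libraries. The residual behind each p is how far the 2 cell types disagreed on the culture difference, plus library noise, which may be technical. Depth came from steps between low values, not from counts, so no counting intervals are given.

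The members, the gene lists and the counts were chosen with earlier results of these data known. All members are named. Of each neighbouring list, up to 3 genes were named, those above 0 in every library with the largest absolute log2 ratio. Alternatives were other pseudocounts, filters, scalings and the highest transcript in place of the sum.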

Additional observations from a re-analysis of the deposited data

Results flagged for a closer look

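Cyp51 differed between the cell types in opposite directions in the 2 cultures. The log2 ratio of labelled overexpressing to normal cells was −1.33 with LIF (4.80 against 13.6 FPKM) and 0.66 after 24 h (21.9 against 13.4 FPKM). Opposite signs were common, at 17 of 29 members and 3484 of 9590 genes. Cyp51 was singled out because both of its ratios were past 1.5-fold, which held for 1 of 29 members and 235 of 9590 genes. With 1 library in each group the difference was not tested.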

How the results depend on the processing

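Of 1368 member ratios recomputed under the alternatives, 1354 kept their sign and none of the called ratios changed sign. Of 142 recomputed ratios that were past 2-fold as reported, 135 remained past it. With a pseudocount of 5, no sterol enzyme passed 2-fold between cell types with LIF (0, against 2) or in normal cells after 24 h (0, against 1). At 40 days against LIF 3 instead of 5 sterol enzymes did, and the sterol median was −0.29. That count was 6 with a pseudocount of 0.1 or with median of ratios scaling, and 7 with quantile normalization. With quantile normalization 1 sterol enzyme passed 2-fold between cell types with LIF, 1 instead of 2 fatty acid genes was lowest at 40 days, the fatty acid median at 40 days against LIF was −0.18, and the sterol median at 40 days against 24 h was −0.84. That normalization moved the median of all genes from 0.076 to −0.031 at 40 days against LIF. With the highest transcript in place of the sum, the fatty acid median in normal cells after 24 h was 0.20, and the regulator medians were 0.14 in overexpressing cells after 24 h and −0.15 at 40 days against LIF. With a mean of at least 5 FPKM, the fatty acid median at 40 days against 24 h was −0.45. The shifts with the highest transcript come from Acly and Scap, the only members with more than 1 transcript above 0. Apart from these and the smaller ratios that a larger pseudocount gives by construction, the cause was not tested. The limma fits called 0 members under every alternative run. No paired analysis was possible because each group is 1 library and the labels carry no replicate numbers, and no replicate could be left out for the same reason.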
